A study of Oryza sativa with 18 samples.

Results

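Auxin is the hormone that starts new organs on roots, and the synthetic auxin 2,4-D makes roots of rice and legumes form nodule-like structures (NLS), outgrowths that appear without any bacteria. The transcripts described here are those that stood higher in 2,4-D roots than in mock roots at 7 and 14 days post treatment (dpt), when the structures are visible, but not at 1 dpt. They were chosen by their measured values: of 66860 rice transcripts, 121 met the rule. The measure was L, the log2 ratio of the mean CPM, the counts of a transcript per 1000000 counts of its library, plus 1 in 2,4-D roots over the mean CPM plus 1 in mock roots. A member had L of at least 1 at 7 and at 14 dpt, with all 3 2,4-D libraries above all 3 mock libraries at both times, L of at most 0.3 at 1 dpt, and a mean of at least 10 CPM in 2,4-D roots at 7 or 14 dpt.

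Roots of Oryza sativa cv. Nipponbare seedlings were compared in 6 groups of 3 libraries each, namely plants soaked in 50 μM 2,4-D and collected at 1, 7 or 14 dpt, and mock plants, soaked without 2,4-D, of the same times. At 7 and 14 dpt the 2,4-D RNA came only from roots that bore NLS, while at 1 dpt no root bore them, so the later 2,4-D groups were also selected for the structure. The batch entry of the samples differs between 1 dpt and the later days and is the same for 7 and 14 dpt. A change in level between 1 dpt and the later days thus cannot be told apart from a change of batch. The methods describe a pool of 6 libraries on a single lane. Whether the 7 and 14 dpt libraries shared a lane is therefore not known, and a lane difference between these days cannot be told apart from time. The labels and methods call the 3 libraries of a group biological replicates and do not say how many plants went into each.

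Library totals lay between 9416952 and 18057748 counts. As root transcripts 3 were examined, for the NOD26-like intrinsic protein 4;2 (LOC_Os02g51110.1), the tonoplast intrinsic protein 2;3 (LOC_Os02g44080.1) and a lipid-transfer/2S albumin family protein (LOC_Os02g44310.1), and each was present in every library. No other tissue and no shoot transcript was set beside them, so their presence cannot test the tissue label. Their summed level was lower in 2,4-D roots at every time, already at 1 dpt, with 1275 to 1557 CPM against 2875 to 4037 CPM in mock roots. At 7 dpt it was 480 to 730 CPM against 2099 to 3337 CPM in mock roots. At 14 dpt it was 372 to 831 CPM against 1381 to 3688 CPM in mock roots. In whole roots, more cells of a kind and more RNA per cell cannot be told apart, and the part of such shifts in the levels below was not tested.

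Of 13010 transcripts with a mean of at least 10 CPM in 2,4-D roots at 7 or 14 dpt, 1254 (9.64%) met the L and separation criteria at 7 dpt, 907 (6.97%) at 14 dpt and 533 (4.1%) at both. The 121 late-raised transcripts were 22.7% of those 533. Among the other 412, L at 1 dpt was at least 1 for 265 and between the bound and 1 for 147. All of these values chose the members, so they are given as a description and carry no test. The members just inside the 1 dpt bound were LOC_Os02g47830.1 with L of 0.2964 and the fasciclin-like arabinogalactan protein 10 gene LOC_Os04g48490.1 with 0.2967, and just outside stood LOC_Os03g45270.1, an HSP20-like chaperone, with 0.3007 and the bHLH factor LOC_Os07g48900.1 with 0.3008. The L bound at 7 dpt lay between LOC_Os04g49560.1 (0.9904) and LOC_Os06g01800.1 (0.9964), both outside, and LOC_Os04g46600.1 (1.0050) and LOC_Os12g38560.1 (1.0131), both members. At 14 dpt it lay between LOC_Os08g42720.1 (0.9994) and the peroxidase LOC_Os03g55420.1 (0.9996), outside, and LOC_Os11g08940.1 (1.0155) and LOC_Os03g45280.1 (1.0281), members. The CPM minimum divided LOC_Os12g08060.1 (9.7822 CPM) and LOC_Os04g47870.1 (9.8412 CPM), outside, from the members LOC_Os02g26794.1 (10.0467 CPM) and LOC_Os03g06610.1 (10.1740 CPM).

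**Figure D1:**
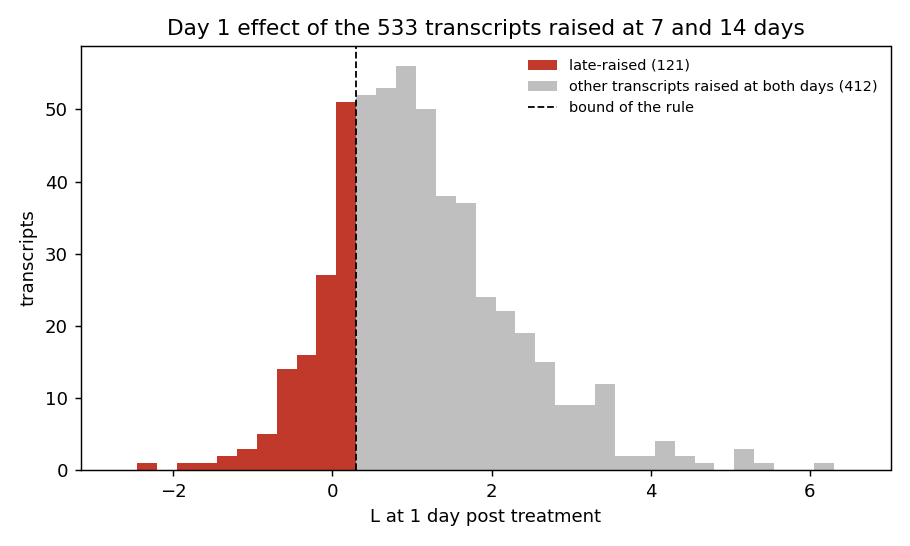
Number of transcripts (vertical axis) by L at 1 dpt (horizontal axis, log2) for the 533 transcripts raised at 7 and 14 dpt, with the 121 late-raised ones in red, the other 412 in grey and the bound of 0.3 as a dashed line. The bound cuts through one continuous distribution and not through a gap.

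The median L of the 121 members was -0.01 at 1 dpt, 1.5 at 7 dpt and 1.70 at 14 dpt, beside medians of 0.12, 0.13 and 0.13 over the 13010 transcripts. L ran from 1.01 to 4.31 at 7 dpt and from 1.02 to 4.42 at 14 dpt. It reached at least 2 at both times for 16 members and at least 3 at both for 4, and stayed under 1.5 at both for 33. Most members were thus moderately raised, with fewer and fewer at larger L. Levels were mostly low, with a median of 26.7 CPM over the 2,4-D roots of 7 and 14 dpt, under 20 CPM for 45 members and over 100 CPM for 17.

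**Figure D2:**
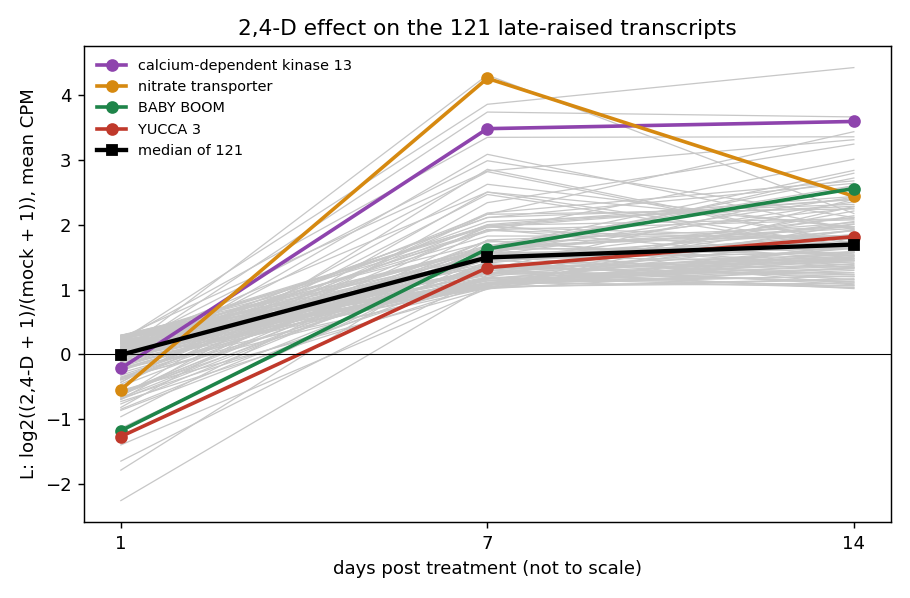
L (vertical axis, log2) at 1, 7 and 14 dpt for each of the 121 members (grey), for 4 named members (coloured) and as the median (black squares, -0.01, 1.5 and 1.70). The transcript described as a nitrate transporter had its larger value at 7 dpt, while BABY BOOM and YUCCA 3 started below 0 at 1 dpt.

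Together the members held 1.14%, 1.43% and 1.07% of the counts of the 2,4-D libraries at 7 dpt, against 0.385%, 0.481% and 0.597% in mock roots. At 14 dpt they held 1.84%, 1.05% and 2.29% in 2,4-D roots, against 0.322%, 0.489% and 0.512% in mock roots. At 1 dpt the shares overlapped, at 0.36%, 0.355% and 0.363% in 2,4-D roots and 0.405%, 0.422% and 0.347% in mock roots. LOC_Os01g15270.1 and LOC_Os01g46380.1 weighed heavily in these shares, with 8902 and 3730 of 22864 CPM in replicate 3 of the 2,4-D roots at 14 dpt. The median level of the members was more even, at 30.4, 24.1 and 31.6 CPM in 2,4-D roots at 14 dpt. In mock roots of that time it was 8.03, 6.54 and 9.17 CPM. Replicate 2 of the 2,4-D roots at 14 dpt was the lowest of its group for 91 members (75.2%), against 56.1% of the 533 transcripts, and at 7 dpt replicate 3 was the lowest for 70 (57.9%), against 69.8% of the 533.

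**Figure D3:**
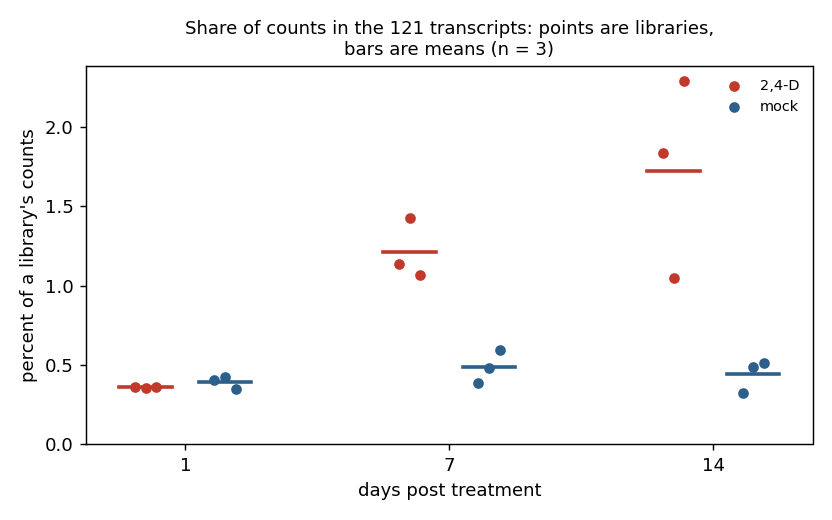
Share of each library's counts, in percent, held by the 121 members at 1, 7 and 14 dpt (points are libraries, bars are means of 3), with 2,4-D in red and mock in blue. The 2,4-D libraries of 14 dpt spread from 1.05% to 2.29%, and LOC_Os01g15270.1 alone spread from 2159 to 8902 CPM in them.

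For 92 members the mean CPM of 2,4-D roots (plus 1) was at least 2-fold above its own 1 dpt level at both later times. The rule favoured such a rise, since it asked for a low L at 1 dpt and a high L later. The 1 dpt libraries were also another batch, and the share over other transcripts was not counted. The 92 are thus a description only. The mean mock level (plus 1) was at most 0.5 times its 1 dpt level at both later times for 4 members, LOC_Os02g08220.1, LOC_Os02g41460.1, LOC_Os05g48650.1 and LOC_Os10g21090.1, which were named after their values were seen. LOC_Os02g08220.1 had no higher mean level in the later 2,4-D roots than at 1 dpt, with 21.9, 17.3 and 16.8 CPM at 7 dpt and 22, 19.9 and 14.8 CPM at 14 dpt beside 11.6, 23.1 and 27.5 CPM at 1 dpt. In its mock roots the values were 21.9, 33.7 and 14.1 CPM at 1 dpt, 13.3, 7.37 and 3.93 CPM at 7 dpt and 5.82, 2.22 and 9.17 CPM at 14 dpt. For this transcript the mock level was the one that was lower at the later days. It was among 4 members whose mean 2,4-D level (plus 1) was less than 1.5-fold above its 1 dpt level at both later times. Another, LOC_Os09g32840.1, had means of 32.1, 38.9 and 34.8 CPM in 2,4-D roots at 1, 7 and 14 dpt. Its mock means were 27, 13.6 and 14.2 CPM.

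Members are named here and below by the study's descriptions, which were not checked against the names of the rice genes. Members with a role in hormone synthesis, breakdown or transport included YUCCA 3 (LOC_Os04g03980.1), whose enzyme family makes the natural auxin indole-3-acetic acid from indole-3-pyruvate. It had 307, 232 and 111 CPM in 2,4-D roots at 7 dpt, against 100, 89.3 and 65.6 CPM in mock roots. At 14 dpt it had 246, 185 and 258 CPM in 2,4-D roots, against 51.6, 55.3 and 86.4 CPM in mock roots. At 1 dpt the order was the opposite, with 28.7, 12.8 and 24.5 CPM in 2,4-D roots, all below the 56, 65.7 and 41.4 CPM of mock roots. The anthranilate synthase alpha subunit (LOC_Os03g61120.1) works at the entry to tryptophan synthesis, the pathway that feeds auxin synthesis. Its replicates were close together, at 50.8, 53.2 and 51.2 CPM in 2,4-D roots against 26.8, 24.5 and 22.5 CPM in mock roots at 7 dpt, and at 54.4, 43.5 and 59.8 CPM against 24, 21.8 and 23.6 CPM at 14 dpt.

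The D6 protein kinase like 2 transcript (LOC_Os08g38320.1), named after an Arabidopsis kinase that activates auxin efflux carriers, had 45.1, 42.5 and 30.6 CPM in 2,4-D roots against 20.9, 18.7 and 13.7 CPM in mock roots at 7 dpt. Enzymes of other hormones were also among the members. CYP707A4 (LOC_Os08g36860.1), of the family that inactivates abscisic acid, had 435, 163 and 482 CPM in 2,4-D roots at 14 dpt, against 25.2, 54.9 and 51.3 CPM in mock roots. At 7 dpt it had 230, 222 and 111 CPM in 2,4-D roots, against 50.1, 56.1 and 43.1 CPM in mock roots. The transcript described as CYP90D1 (LOC_Os01g10040.1), a brassinosteroid synthesis enzyme in Arabidopsis, stood lower. It had 23.5, 15.9 and 34.8 CPM in 2,4-D roots at 14 dpt against 8.4, 6.83 and 6.63 CPM in mock roots.

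Of the 30 transcripts that the study lists as hormone-related, 14 met the criteria at both 7 and 14 dpt, and YUCCA 3 was the 1 of these 14 (7.14%) that was late. The study's lists were made from transcripts that differed at 7 dpt in these same libraries, so they are no independent evidence of direction. Over all 1991 transcripts that it lists, 467 met the criteria at both times and 104 of those (22.3%) were late. The share was 16.4% for transcription factors (10 of 61), 21.2% for protein kinases (11 of 52) and 22.2% for transporters (6 of 27). By family, 3 of 8 AP2/ERF factors and 3 of 7 cytochromes P450 that met the criteria at both times were late, beside 0 of 7 LOB and LRP factors, 0 of 8 cysteine-rich receptor kinases and 0 of 7 NAC factors. The median L at 1 dpt of these last lists was 1.88, 1.90 and 1.18. Counts this small describe the families and set none of them apart.

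Among regulators of transcription, 12 members were placed by their descriptions, the 10 listed factors together with SPL9 and an Ovate family protein. Their median L was -0.19 at 1 dpt, 1.46 at 7 dpt and 1.69 at 14 dpt. The transcript that the study's table names BABY BOOM (LOC_Os04g42570.1), an AP2-type factor whose namesake in Brassica and Arabidopsis drives embryo formation when overexpressed, had 18, 26.5 and 18.7 CPM in 2,4-D roots at 7 dpt, against 8.25, 7.5 and 2.68 CPM in mock roots. At 14 dpt it had 34, 19.6 and 31.6 CPM in 2,4-D roots, against 4.49, 2.16 and 5.33 CPM in mock roots. At 1 dpt all 2,4-D libraries, with 3.58, 2.61 and 3.69 CPM, were below the mock libraries, with 8.57, 13 and 4.57 CPM.

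A further AP2-domain factor, LOC_Os05g49010.1, was nearly absent outside the late 2,4-D roots. It had 9.14, 8.82 and 6.32 CPM in 2,4-D roots at 7 dpt and 15.3, 15.5 and 7.89 CPM at 14 dpt, against 0.975, 0.427 and 0.982 CPM and 0.147, 0.626 and 0.62 CPM in mock roots of the same times. At 1 dpt it had 0.821, 0.158 and 0.738 CPM in 2,4-D roots and 1.16, 2.66 and 1.49 CPM in mock roots. The AP2-domain factor LOC_Os01g64790.1 had 18, 33.6 and 9.2 CPM in 2,4-D roots at 7 dpt, against 1.17, 3.6 and 3.48 CPM in mock roots.

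The bHLH factor LOC_Os06g50900.1 had the highest level of the group, with 133, 107 and 220 CPM in 2,4-D roots at 14 dpt against 53, 37.9 and 53.2 CPM in mock roots. The HD-ZIP factor with a START domain (LOC_Os02g45250.1) followed, with 111, 106 and 107 CPM in 2,4-D roots at 14 dpt against 39.9, 31.1 and 43.9 CPM in mock roots. The transcript described as SPL9 (LOC_Os08g39890.1), of a family that in Arabidopsis is restrained by miR156, had L of 0.20 at 1 dpt, 1.41 at 7 dpt and 2.01 at 14 dpt. The other members of the group were the bHLH factor LOC_Os03g19780.1, the homeobox factor LOC_Os09g27450.1, the homeodomain-like LOC_Os02g01380.1, the zinc finger protein LOC_Os01g57650.1 and the Ovate protein LOC_Os01g64430.1. None of these had L above 1.9 at either late time.

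A kinase and a GRAS factor among the members were also chosen by the study for reverse-transcription PCR, and the designed primers are shown because they mark the ends of the stretch that was amplified.
Forward primer of LOC_Os08g42750.1: ggaggatgcttgatcctaacc
Reverse primer of LOC_Os08g42750.1: gagtaagagtatccttgcagagc
Forward primer of LOC_Os11g04570.1: gatcagggacgttctggttg
Reverse primer of LOC_Os11g04570.1: ctcaagtctgcctatcacagaaa

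LOC_Os11g04570.1 is the scarecrow-like 3 GRAS factor, whose Arabidopsis namesake acts in gibberellin signalling in the root. It had 9.86, 7.92 and 9.48 CPM in 2,4-D roots at 7 dpt against 3.57, 3.9 and 3.75 CPM in mock roots, and 12.2, 10.7 and 12.1 CPM in 2,4-D roots at 14 dpt against 2.73, 5.35 and 3.41 CPM in mock roots. Its levels at 1 dpt were 5.52, 7.9 and 5.09 CPM in 2,4-D roots and 6.24, 4.85 and 4.04 CPM in mock roots. The factor thus had a low level with little spread between libraries.

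LOC_Os08g42750.1 encodes the calcium-dependent protein kinase 13, of a family whose members carry a calcium sensor and a kinase in the same protein. It had 32.9, 43.6 and 19.3 CPM in 2,4-D roots at 7 dpt against 1.69, 2.99 and 1.16 CPM in mock roots, and L was 3.48. At 14 dpt it had 144, 103 and 55.3 CPM in 2,4-D roots against 1.1, 19.5 and 1.73 CPM in mock roots, and L was 3.59. At 1 dpt all 6 libraries lay between 1.17 and 2.69 CPM. The 19.5 CPM of mock replicate 2 at 14 dpt stood far above the other mock libraries and still below every 2,4-D library of 7 dpt but that of replicate 3.

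Other signalling members had lower L. The leucine-rich repeat receptor kinase LOC_Os01g52050.1 had the highest level, with 366, 250 and 354 CPM in 2,4-D roots at 14 dpt against 112, 89.5 and 120 CPM in mock roots. A second receptor kinase of this class, LOC_Os06g38990.1, had 155, 102 and 190 CPM in 2,4-D roots against 58.8, 21.9 and 45.9 CPM in mock roots at the same time. The AGC-type kinase LOC_Os03g44020.1 had 29.3, 21.5 and 17 CPM in 2,4-D roots at 14 dpt against 5.6, 4.72 and 4.77 CPM in mock roots. A phosphatidylinositol-4-phosphate 5-kinase (LOC_Os11g04840.1), a WNK kinase (LOC_Os02g45170.1), the peptidoglycan-binding (LysM) kinase LOC_Os01g53840.1 and the NB-ARC protein LOC_Os11g37050.1 had L between 1.17 and 1.75 at the late times. The mannose-binding lectin family protein LOC_Os01g72810.1 had L of 2.62 at 7 dpt and 1.95 at 14 dpt on levels of 7.81 to 15.3 CPM in 2,4-D roots.

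Of the members listed as transporters, LOC_Os02g38230.1, which the study describes as nitrate transmembrane transporters, had both the highest level and the widest spread. At 7 dpt it had 200, 598 and 19.3 CPM in 2,4-D roots, against 13, 17.9 and 9.02 CPM in mock roots, so that the lowest 2,4-D library barely cleared the highest mock library. At 14 dpt it had 263, 314 and 424 CPM in 2,4-D roots, against 57.2, 84.2 and 40.7 CPM in mock roots. At 1 dpt the groups overlapped, with 57.9, 90.4 and 25.5 CPM in 2,4-D roots and 64.2, 87.1 and 104 CPM in mock roots. L was -0.54 at 1 dpt, 4.26 at 7 dpt and 2.44 at 14 dpt, the fall in L after 7 dpt going with a higher mock level.

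The ABC2 homolog 6 transcript (LOC_Os08g30780.1) had 59.9, 32.2 and 54.5 CPM in 2,4-D roots at 14 dpt against 8.03, 5.97 and 10.8 CPM in mock roots. The heavy metal transport/detoxification protein LOC_Os02g30650.1 had 17.9, 15.4 and 22.8 CPM in 2,4-D roots at 14 dpt against 3.68, 1.99 and 4.09 CPM in mock roots. The nucleobase-ascorbate transporter 12 (LOC_Os01g63870.1) and the xanthine/uracil permease LOC_Os02g50820.1 had L of 1.49 and 1.32 at 14 dpt.

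**Figure D4:**
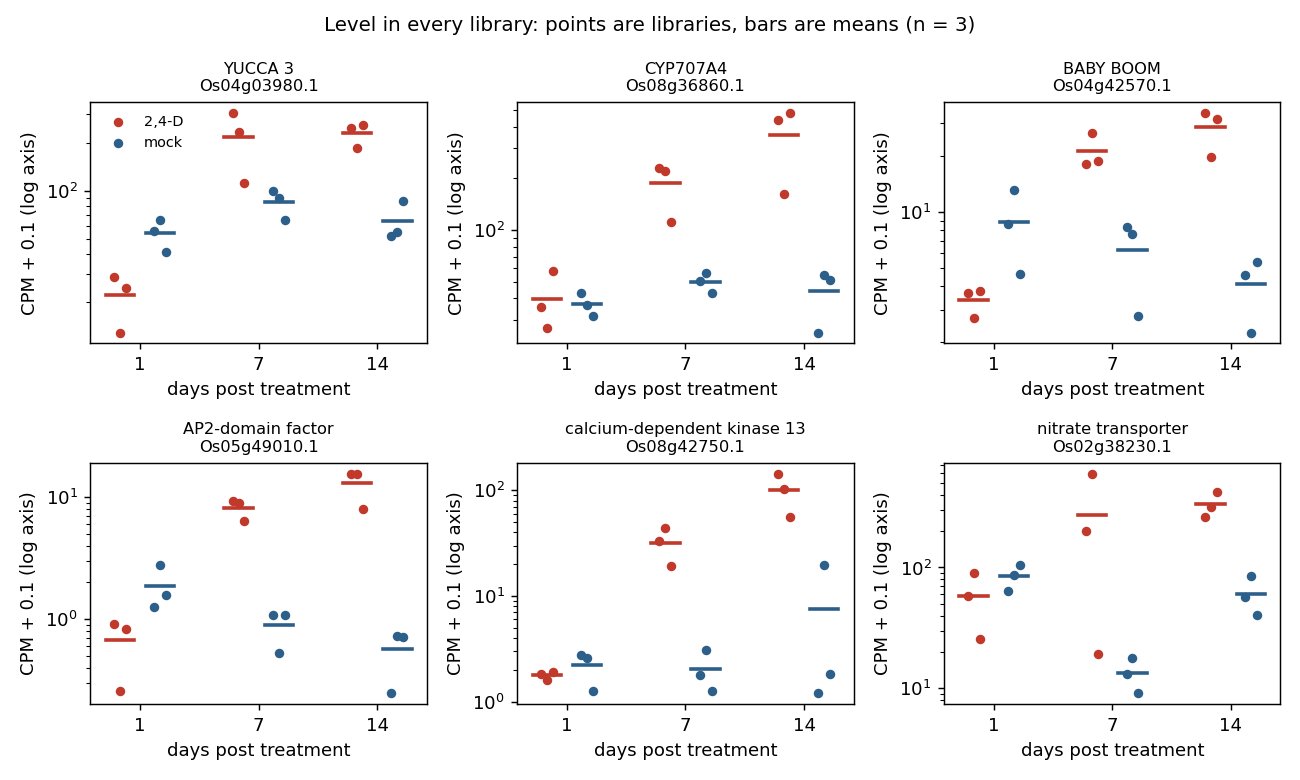
CPM plus 0.1 (vertical axes, log scale) in each library (points) with group means (bars, n = 3) at 1, 7 and 14 dpt for 6 members, with 2,4-D in red and mock in blue. At 7 and 14 dpt every red point lies above the blue points of its day, as the rule demanded. Replicate 3 of the 2,4-D roots at 7 dpt has only 19.3 CPM of the transcript described as a nitrate transporter.

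Cell wall and secreted proteins gave 8 members, with median L of 0.13 at 1 dpt, 1.92 at 7 dpt and 1.91 at 14 dpt. The peroxidase LOC_Os04g59260.1, of a family that acts on wall phenolics, had 585, 825 and 667 CPM in 2,4-D roots at 7 dpt against 274, 373 and 242 CPM in mock roots. At 14 dpt it had 961, 421 and 1162 CPM in 2,4-D roots against 247, 164 and 200 CPM in mock roots. At 1 dpt it was lower in all 2,4-D libraries, with 99.7, 73 and 181 CPM against 349, 512 and 253 CPM in mock roots. The chitinase A transcript (LOC_Os04g27980.1), for an enzyme that cleaves fungal wall chitin, had 366, 210 and 401 CPM in 2,4-D roots at 14 dpt against 8.03, 49.4 and 30.2 CPM in mock roots, and 108, 167 and 323 CPM in 2,4-D roots at 7 dpt against 42.6, 16.7 and 72 CPM in mock roots.

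The glycosyl hydrolase family 17 protein LOC_Os01g53750.1, of the family of beta-1,3-glucanases, had L of 2.11 at 7 dpt and 2.31 at 14 dpt. A nucleotide-diphospho-sugar transferase (LOC_Os02g51060.1) had 228, 172 and 153 CPM in 2,4-D roots at 7 dpt against 55.4, 51.7 and 37.5 CPM in mock roots. The subtilase LOC_Os10g38080.1 and galacturonosyltransferase 4 (LOC_Os09g30280.1), a pectin synthesis enzyme in Arabidopsis, had L of 1.93 and 1.22 at 7 dpt.

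Metabolic enzymes held the most abundant described member. Ketol-acid reductoisomerase (LOC_Os01g46380.1), an enzyme of branched-chain amino acid synthesis, had 3054, 1735 and 3730 CPM in 2,4-D roots at 14 dpt against 593, 800 and 859 CPM in mock roots. At 7 dpt it had 1689, 2324 and 1412 CPM in 2,4-D roots against 634, 733 and 1173 CPM in mock roots. A starch synthase (LOC_Os06g06560.1) had 60.6, 85.7 and 108 CPM in 2,4-D roots at 7 dpt against 12.7, 11.2 and 9.56 CPM in mock roots, and 108, 72.3 and 118 CPM in 2,4-D roots at 14 dpt against 22.2, 56.4 and 11.3 CPM in mock roots.

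The alpha/beta-hydrolase LOC_Os05g33730.1 had 655, 829 and 470 CPM in 2,4-D roots at 7 dpt against 226, 303 and 358 CPM in mock roots. The class I glutamine amidotransferase-like protein LOC_Os01g11860.1 was among the most even members, with 32.5, 30.5 and 34.8 CPM in 2,4-D roots at 7 dpt against 7.28, 7.5 and 7.68 CPM in mock roots. The phosphoribosyl pyrophosphate amidotransferase of purine synthesis (LOC_Os05g35580.1) and the glutathione S-transferase tau 7 (LOC_Os05g34150.1) had L of 1.54 and 2.03 at 14 dpt.

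Proteins of the nucleus and of RNA gave 7 members. The largest mean L of all 121 belonged to the ribonuclease H-like protein LOC_Os03g36000.1, with 19.6, 18.1 and 8.86 CPM in 2,4-D roots at 7 dpt against 0, 0.244 and 0.179 CPM in mock roots, and 23.7, 16.3 and 38 CPM in 2,4-D roots at 14 dpt against 0.663, 0.114 and 0 CPM in mock roots. At 1 dpt it was at or under 0.41 CPM in all 6 libraries, so that it was near the limit of counting everywhere but in the late 2,4-D roots. Demeter-like 1 (LOC_Os05g37350.1), whose Arabidopsis relatives remove DNA methylation, had 28, 37.8 and 51.2 CPM in 2,4-D roots at 7 dpt against 11.3, 17.3 and 18.3 CPM in mock roots. The transcript elongation factor IIS (LOC_Os07g12630.1) had L of 1.46 at 7 dpt and 2.11 at 14 dpt. The actin depolymerizing factor 6 (LOC_Os10g37670.1), a cytoskeletal member outside these groups, had 48.2, 20.9 and 83.2 CPM in 2,4-D roots at 14 dpt against 8.91, 9.5 and 8.24 CPM in mock roots, and the galactose oxidase/kelch protein LOC_Os01g19480.1 and the DUF827 protein LOC_Os05g39840.1, of no role given here, had L of 2.68 and 2.44 at that time.

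Further members came from the remaining lists. Among proteases, the aspartyl protease LOC_Os01g71090.1 had 34, 33.1 and 30.3 CPM in 2,4-D roots at 7 dpt against 10.5, 9.69 and 10.6 CPM in mock roots, and the aspartyl protease LOC_Os04g45270.1 had 15.4, 13.1 and 16.8 CPM against 3.31, 6.4 and 4.38 CPM. At 1 dpt LOC_Os01g71090.1 had 22.7, 22.7 and 42.1 CPM in 2,4-D roots and 29.6, 41.5 and 14.1 CPM in mock roots, and the groups overlapped. The cytochrome P450 of subfamily 71B (LOC_Os01g27890.1) had L of 1.63 at 7 dpt and 2.26 at 14 dpt. The F-box protein LOC_Os05g08010.1, of the family that selects targets for ubiquitin ligases, had 17.9, 18.2 and 15 CPM in 2,4-D roots at 7 dpt against 7.41, 7.07 and 4.56 CPM in mock roots.

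The kinase-interacting (KIP1-like) protein LOC_Os03g01980.1 and the kinase-interacting protein LOC_Os04g28040.1, matched by their descriptions to the kinase and the cytoskeleton lists, are not described as kinases themselves. LOC_Os04g28040.1 had 28.2, 22.7 and 22.3 CPM in 2,4-D roots at 7 dpt against 11.7, 10.4 and 9.65 CPM in mock roots, an even pair of groups. LOC_Os03g01980.1 had 9.78, 9.96 and 18.5 CPM against 2.34, 3.72 and 1.52 CPM. The AAA-type ATPase LOC_Os05g45340.1, counted with the transporters, had L of 1.19 at 7 dpt and 1.06 at 14 dpt. The phosphate-responsive 1 family gave 2 members, LOC_Os02g51970.1, with 95.8, 87.8 and 64.2 CPM in 2,4-D roots at 7 dpt against 11.8, 20.2 and 10.5 CPM in mock roots, and LOC_Os06g11660.1, with 18.9, 13.5 and 11.6 CPM against 4.09, 5.79 and 4.91 CPM. Arabidopsis relatives of this family, the EXORDIUM proteins, are cell wall proteins of growing tissue.

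A description was found for 78 of the 121 members. Of the others, 26 are in the study's table with none and 17 are not in it. Undescribed members included the most abundant of all, LOC_Os01g15270.1, with 6546, 2159 and 8902 CPM in 2,4-D roots at 14 dpt against 334, 1413 and 1607 CPM in mock roots. At 7 dpt it had 2749, 3034 and 3301 CPM in 2,4-D roots against 473, 1470 and 2523 CPM in mock roots, with little room between the groups. LOC_Os03g45280.1, also undescribed, had 572, 1368 and 536 CPM in 2,4-D roots at 7 dpt against 507, 261 and 321 CPM in mock roots.

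The contrasts between 2,4-D and mock chose the members, so the changes tested were those between 14 and 7 dpt within 2,4-D and within mock roots, in libraries that the rule also used. The edgeR quasi-likelihood test was fitted to 14522 transcripts, 119 of them members, and a call needed a log2 fold change of at least 1 in size and a p under 0.05 after Benjamini-Hochberg adjustment. LOC_Os11g26990.1 and LOC_Os02g26794.1 did not reach the minimum level for the fit. No member was called, and no transcript of the table was (0% of 14522), in 2,4-D roots or in mock roots. At an unadjusted p under 0.05 there were 3 members in 2,4-D roots and 5 in mock roots, beside 3.17% and 3.62% of all transcripts. Without 2,4-D replicate 2 of 14 dpt, the lowest of its group for 91 members, these counts were 14 and 7, and without 2,4-D replicate 1 of 14 dpt the count in 2,4-D roots was 0. Without mock replicate 3 of 14 dpt the count in mock roots was 12, and without mock replicate 1 of 7 dpt it was 2. The difference between the 2,4-D effects of the 2 days was fitted too and also gave 0 calls, but it is built from the very contrasts that chose the members, so its values are a description. In mock roots only 59 members passed the level filter on the mock libraries alone, and the other tested members entered through the 2,4-D libraries in which they are high. limma-voom and DESeq2 also called 0 members.

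The rule chose the members by their levels in these same libraries, while the other transcripts were not so chosen. The counts and medians that follow are therefore a description and carry no test of a further rise. The log2 fold change at 14 against 7 dpt was above 0 for 89 of the 119 tested members in 2,4-D roots and for 55 in mock roots, where 51.6% and 47.5% of all tested transcripts were above 0. The median was 0.23 in 2,4-D roots and -0.06 in mock roots, beside 0.01 and -0.02 over all transcripts, and with single libraries left out it ran from 0.14 to 0.32 and from -0.15 to -0.01. For the difference of the effects the median was 0.17, beside 0.01. With single libraries left out it ran from 0.08 to 0.32, with 0.31 without 2,4-D replicate 2 of 14 dpt and 0.08 without replicate 1. The 3 libraries of 14 dpt lay above the 3 of 7 dpt without overlap for 7 members in 2,4-D roots, where 3.78% of all transcripts did, and below for 0, where 4.46% did. In mock roots these counts were 4 (2.73% of all) and 5 (2.95%). The 95% interval of the change lay within -1 and 1 for 53 members in 2,4-D roots, 55 in mock roots and 17 for the difference of the effects, so that for most members a 2-fold change between the days was within the error.

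**Figure D5:**
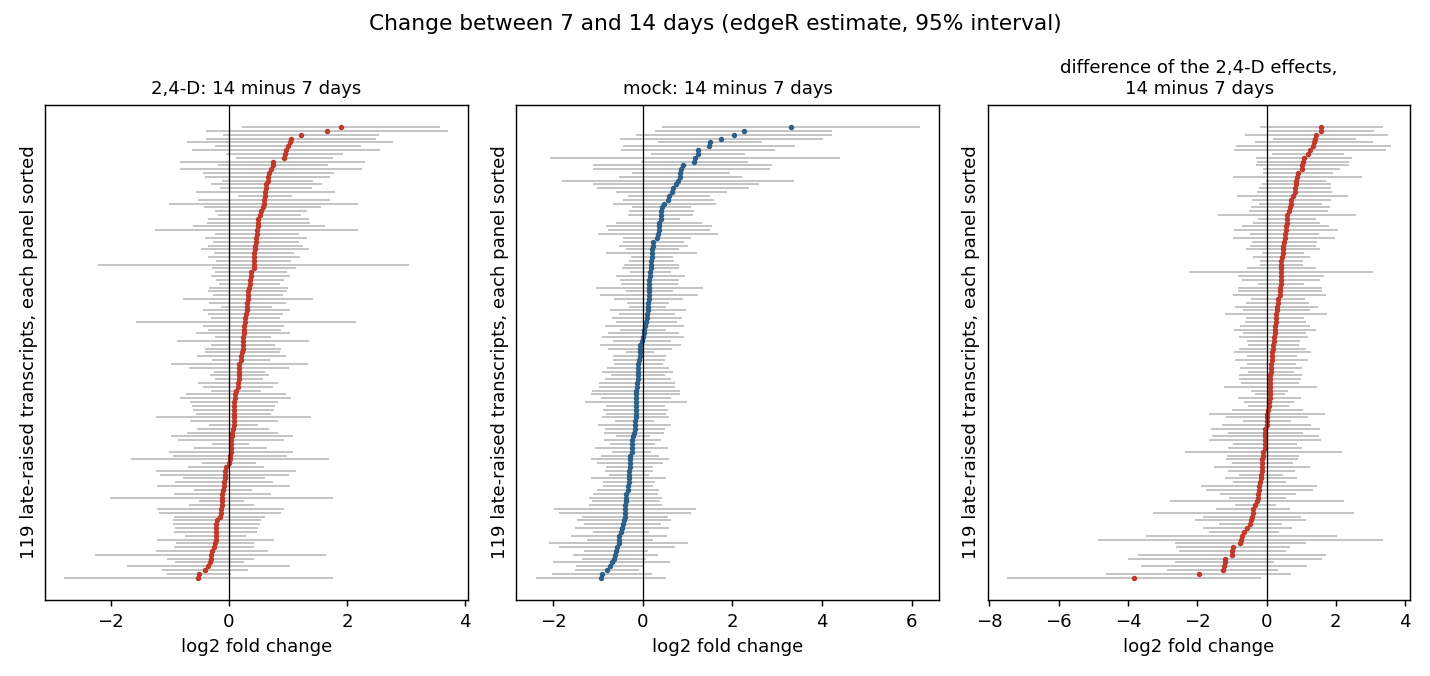
log2 fold change (horizontal axes) with its 95% interval for the 119 tested members, each panel sorted, in 2,4-D roots at 14 against 7 dpt, in mock roots at 14 against 7 dpt and for the difference of the 2,4-D effects, 14 minus 7 dpt, which the rule's own contrasts make up. No member was called in any panel, and the point estimates run from -0.52 to 1.90, from -0.94 to 3.30 and from -3.82 to 1.58.

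The members with an unadjusted p under 0.05 are given with their values and were not called. In 2,4-D roots they were LOC_Os08g10920.1, at 12.6, 7.03 and 14.7 CPM at 14 dpt and 2.32, 4.9 and 1.99 CPM at 7 dpt (log2 fold change 1.90, 95% interval 0.23 to 3.57, edgeR adjusted p = 0.997), LOC_Os04g46740.2 (0.94) and the glutamine amidotransferase-like LOC_Os01g11860.1, at 55.3, 47.1 and 45.7 CPM at 14 dpt and 32.5, 30.5 and 34.8 CPM at 7 dpt (0.61, 0.15 to 1.07). In mock roots they were the undescribed LOC_Os02g02190.1 (3.30), LOC_Os02g38230.1, described as a nitrate transporter (2.25, interval 0.28 to 4.21), the starch synthase LOC_Os06g06560.1 (1.51), the lectin protein LOC_Os01g72810.1 (1.23) and LOC_Os03g06610.1 (-0.79). LOC_Os02g02190.1, LOC_Os01g72810.1 and LOC_Os03g06610.1 were under 10 CPM in every mock library of both days. They were tested only through the 2,4-D libraries. LOC_Os02g02190.1 had only 0.26, 0.305 and 0.447 CPM in mock roots at 7 dpt. With the mock libraries alone, 2 of 59 members had an unadjusted p under 0.05 (edgeR).

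The day 1 side of the rule allowed any value up to 0.3, and the members filled that range down to -2.25. L at 1 dpt was under 0 for 61 members and at or under -1 for 7. All 2,4-D libraries were below all mock libraries at 1 dpt for 14 members (14.4% of the 13010 transcripts had this), which is 11.6% of the members and no higher a share than that of all transcripts. All were above for 3 members, where 23.4% of the 13010 transcripts had this order, a count that the 1 dpt bound itself holds down. LOC_Os10g21090.1, undescribed, had the lowest value, with 2.84, 1.26 and 3.77 CPM in 2,4-D roots at 1 dpt against 15.5, 23.5 and 9.77 CPM in mock roots. LOC_Os06g40870.1, also undescribed, had 5.3, 5.21 and 8.86 CPM in 2,4-D roots at 1 dpt against 22.7, 35.8 and 15.6 CPM in mock roots, and at 7 dpt 61.9, 46 and 46.8 CPM against 16.3, 14 and 13.1 CPM.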

How the data were processed

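Total RNA of rice roots was sequenced as stranded paired-end mRNA libraries. Per the methods, the authors aligned the reads to the MSU rice genome with Rsubread and counted them with featureCounts, and the deposited table holds their raw counts per transcript for 18 libraries. How reads shared by isoforms or overlapping genes were counted is not given in the sources used here. All 18 columns were matched to samples by title.

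CPM were counts divided by the column total, and L used a pseudocount of 1. Members and gene lists were chosen with earlier results of these data known. Differences between 14 and 7 dpt were tested with edgeR 4.0.16 (quasi-likelihood, robust, TMM factors, R 4.3.3) on the 12 libraries of 7 and 14 dpt, for transcripts of at least 10 CPM in 2 or more of them, with Benjamini-Hochberg adjustment over all of these. The code was tested on simulated data. limma 3.58.1 (voom), DESeq2 1.42.0, other scalings, filters and samples, a replicate block and leaving out each library were tried. Replicates differed by more than counting noise (chi-square per degree of freedom of 8.19 to 104). The p-values of the main fit set a change against the spread between libraries within groups, estimated jointly over the 12 libraries.

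Descriptions, list membership and primer sequences came from the study's tables. Named members were those that the study's text or PCR names, the 8 with the highest 2,4-D level, the 10 described with the largest mean L, up to 4 of each list, those called by a test and the 2 on either side of each threshold. Others were named after their values were seen, among them those with an unadjusted p under 0.05. Roles were assigned by hand with the values known.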

Additional observations from a re-analysis of the deposited data

Results flagged for a closer look

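For 14 members the 3 2,4-D libraries were all below the 3 mock libraries at 1 dpt and all above them at 7 and at 14 dpt, so the order of the groups was reversed. The gap at 1 dpt was narrow for some. The highest 2,4-D and lowest mock library had 12.1 and 12.2 CPM for LOC_Os05g35070.1, 4.43 and 4.67 CPM for LOC_Os01g64430.1 and 2.53 and 2.83 CPM for LOC_Os01g57650.1. It was wider for others, with 3.77 and 9.77 CPM for LOC_Os10g21090.1. The difference between the days was not tested, since the rule used all of these contrasts and the 1 dpt libraries were sequenced in another batch. L at 1 dpt was -1.65 for the peroxidase LOC_Os04g59260.1, -1.27 for YUCCA 3 (LOC_Os04g03980.1), -1.18 for BABY BOOM (LOC_Os04g42570.1), -0.84 for the Ovate protein LOC_Os01g64430.1, -0.82 for the AP2-domain factor LOC_Os05g49010.1, -0.69 for the DUF630 protein LOC_Os05g35070.1 and -0.32 for the zinc finger protein LOC_Os01g57650.1. Among undescribed members it was -2.25 for LOC_Os10g21090.1, -1.78 for LOC_Os06g40870.1, -1.40 for LOC_Os03g06610.1, -1.14 for LOC_Os05g48650.1, -0.73 for LOC_Os02g33790.1, -0.68 for LOC_Os03g45280.1 and -0.62 for LOC_Os03g13870.1. The 14 are 11.6% of the members, no higher a share than the 14.4% of the 13010 transcripts that had this order at 1 dpt, and the rule favoured low values there.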

How the results depend on the processing

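The number of members was 61 with a 1 dpt bound of 0, and 184 with a minimum of 1 CPM in place of 10. It was 98 with TMM factors, of which 85 were among the 121. Of the 36 members lost, 26 had L under 1 at 7 or 14 dpt, 6 had overlapping groups and 4 were under the CPM minimum. TMM moved the median L at 7 dpt to 0.03 over all transcripts and 1.39 over the members, against 0.13 and 1.5 with column totals, and no member changed sign at 7 or 14 dpt. Leaving out each of the 18 libraries gave 109 to 146 members. The count of members called between 14 and 7 dpt was 0 in each of the 6 directions under every alternative run, limma-voom, DESeq2 and the replicate block included. At an unadjusted p under 0.05, limma-voom had 8 members in 2,4-D roots and 0 in mock roots, and DESeq2 5 and 8, and over all transcripts DESeq2 called 1 and 2. With the replicate block these unadjusted counts were 4 and 5. With single libraries left out they ran from 0 to 14 in 2,4-D roots and from 2 to 12 in mock roots. Same-numbered libraries did not deviate together throughout (correlations of -0.27 to 0.53 over 18 pairs), so the numbers were not taken as pairs. A call required a change of at least 2-fold, so smaller changes between the days could not be called, and replicates spread by more than counting noise. The smallest edgeR adjusted p of a member was 0.997 in 2,4-D roots and 0.992 in mock roots. In the main fit no member thus missed a call by its fold change alone.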

Other observations

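The 121 transcripts came from 120 loci, spread over all 12 chromosomes by their locus numbers, from 2 on chromosome 12 to 20 each on chromosomes 1 and 2. LOC_Os08g33479 gave 2 members, isoforms 1 and 2, with mean levels of 77.7 and 24.1 CPM in 2,4-D roots at 7 dpt against 9.88 and 3.42 CPM in mock roots, and how their shared reads were divided is not known. LOC_Os01g10040.2, the second isoform of the CYP90D1 locus, was the 1 further isoform at 1 CPM or more that was not a member, with L of 0.78 at 7 dpt and 1.65 at 14 dpt. Pairs of member loci at most 9 loci apart in the table numbered 4. LOC_Os05g34780, a zinc ion and DNA binding protein, and LOC_Os05g34790, with SWIB, Plus-3 and GYF domains, were direct neighbours, and LOC_Os05g34780.1 had 50.8, 49.1 and 48.8 CPM in 2,4-D roots at 7 dpt against 16.1, 15 and 11.4 CPM in mock roots, while LOC_Os05g34790.1 had 14.5, 17.7 and 13.4 CPM against 5.85, 4.94 and 5.63 CPM.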
